A study of Drosophila melanogaster with 3 samples.

Results

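The 10 genes described here encode the transcription factors that carry the ecdysone signal in Drosophila melanogaster. They are EcR, usp, Eip75B, Eip74EF, Eip78C, br, ftz-f1, Hr3, Hr4 and Hr38, taken by name from 13945 protein-coding genes of the Ensembl annotation of the dm6 build on chromosome X, the autosomal arms and chromosome 4. They have 61 annotated transcripts with 37 distinct starts. Starts of a gene that lie within 500 bp of each other were joined into 1 start group, which left 31 groups, numbered in the direction of transcription. Binding of Ewg (erect wing), a transcription factor of neurons and muscle and the fly homologue of vertebrate NRF-1, was mapped by chromatin immunoprecipitation and sequencing. The material was whole embryos of 0 to 14 hours and both sexes, from a transgenic line stably expressing ewg with GFP fused at its C-terminal end. There were 3 biological replicates in 1 group, with a control alignment that all lists share and no other genotype, treatment or stage. The promoter of the transgene is not stated in the labels, the precipitation is described as anti-GFP although the antibody field names ewg, and cell types within the embryo cannot be told apart. Peak lists hold no expression values, so the tissue could not be checked by markers.

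Ecdysone is converted to 20-hydroxyecdysone, the steroid hormone of insects, which binds a heterodimer of the nuclear receptors EcR and Usp. The hormone-bound receptor induces a small set of early genes, among them Eip75B, Eip74EF and br, whose products induce later genes and shut down their own. Hr3, Hr4 and ftz-f1 follow in sequence and separate one hormone pulse from the next, and in embryos a pulse in mid-embryogenesis accompanies morphogenesis and the first larval cuticle. Most of these genes are long, with several promoters and large first introns.

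All 10 genes had at least 1 peak of the authors' optimal set in the gene span or at a start. Stretches of 201 bases centred on 7 of these summits are shown because they carry strong start and gene-body peaks described below, or the motif matches. All are from the plus strand of the dm6 reference sequence (NCBI RefSeq), in lower case. Capitals mark matches, on either strand, to 6 motifs, which can overlap. They are the NRF-1 palindrome with at most 1 mismatch, TGCGCA, which can share bases with it, the DRE sequence TATCGATA, the GAGA factor site GAGAG, the Zelda site core CAGGTA and the nuclear receptor half-site AGGTCA. A sequence without capitals holds none of these.
Hr38, 218 bp upstream of the start, chr2L:20714706-20714906: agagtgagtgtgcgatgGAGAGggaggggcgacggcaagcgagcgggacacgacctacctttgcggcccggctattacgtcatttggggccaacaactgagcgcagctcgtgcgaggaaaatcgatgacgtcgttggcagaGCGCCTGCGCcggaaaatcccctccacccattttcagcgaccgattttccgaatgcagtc
ftz-f1, 130 bp upstream of start 1, chr3L:18801339-18801539: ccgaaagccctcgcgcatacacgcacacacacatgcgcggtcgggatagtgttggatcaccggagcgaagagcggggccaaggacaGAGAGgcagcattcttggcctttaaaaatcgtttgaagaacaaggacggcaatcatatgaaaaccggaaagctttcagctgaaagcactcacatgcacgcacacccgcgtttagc
Eip75B, 55 bp downstream of start 5, chr3L:17999666-17999866: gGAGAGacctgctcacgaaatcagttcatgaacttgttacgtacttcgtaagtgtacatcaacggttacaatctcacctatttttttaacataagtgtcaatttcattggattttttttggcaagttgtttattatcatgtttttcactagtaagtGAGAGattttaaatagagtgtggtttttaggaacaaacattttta
Eip75B, intron, chr3L:17968502-17968702: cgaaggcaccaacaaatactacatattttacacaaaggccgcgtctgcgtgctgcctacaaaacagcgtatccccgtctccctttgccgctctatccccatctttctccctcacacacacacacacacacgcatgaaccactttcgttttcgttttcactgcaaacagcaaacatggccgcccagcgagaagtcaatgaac
Eip74EF, intron, chr3L:17572090-17572290: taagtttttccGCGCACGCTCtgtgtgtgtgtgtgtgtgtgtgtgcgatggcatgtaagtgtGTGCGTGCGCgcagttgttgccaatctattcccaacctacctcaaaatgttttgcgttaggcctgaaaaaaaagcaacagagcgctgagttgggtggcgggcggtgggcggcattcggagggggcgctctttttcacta
Hr4, intron, chrX:1947648-1947848: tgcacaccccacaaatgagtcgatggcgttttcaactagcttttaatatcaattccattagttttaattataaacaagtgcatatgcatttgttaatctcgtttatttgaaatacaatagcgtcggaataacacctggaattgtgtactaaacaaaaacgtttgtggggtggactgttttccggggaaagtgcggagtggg
Hr4, intron, chrX:1981823-1982023: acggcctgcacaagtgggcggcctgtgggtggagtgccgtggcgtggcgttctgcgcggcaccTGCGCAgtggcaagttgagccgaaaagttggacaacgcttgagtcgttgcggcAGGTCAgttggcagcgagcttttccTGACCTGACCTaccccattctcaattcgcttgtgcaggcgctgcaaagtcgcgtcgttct
In the Hr38 sequence the palindrome match starts 41 bp after the summit. The Eip74EF sequence holds 2 palindrome matches, and the second Hr4 sequence holds 3 AGGTCA matches on both strands together with 1 TGCGCA. A match is a description of the letters and not evidence of a bound site.

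The optimal set of 6793 peaks coincided with the top 6793 of 30000 regions called on the pooled replicates. Signal is the authors' value for each peak and rank is the place in the pooled list, 1 being the strongest. A summit, the deposited position of greatest signal in a peak, was matched to the nearest summit within 100 bp in each replicate's own list, and its signal there was divided by the median, in the same list, of the 5852 optimal peaks that all 3 lists matched. This relative signal is 1 for the median peak. Those medians were 81.39, 123.7 and 84.07 for replicates 1, 2 and 3, so replicate 2 stood apart on the authors' scale before division. The lists give no read counts, so the depth is unknown. With 3 replicates the smallest p that an exact two-sided sign-flip permutation test can give is 0.25, so none of these comparisons can reach significance. The start and gene-body summits compared below were picked as the strongest from these same replicates. Each gene compared had more gene-body than start summits to pick from, which favours the gene body.

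The 6 genes with an optimal summit within 500 bp of a start were EcR, usp, Eip75B, ftz-f1, Hr3 and Hr38. Eip74EF, Eip78C, br and Hr4 had none. The count of 6 of 10 stands beside 26.4% of all 13945 genes, 40.9% of the 4588 genes whose span and number of start groups lie in the range of the 10, and 51.6% of the 574 genes with spans of 31.1 to 114 kb, the range of the 9 longest of them (all but usp). Without usp the count was 5 of 9. The share was thus above that of all genes and nearer to that of genes as long. An optimal summit anywhere in the span or at a start was present in 10 of 10 genes, against 30.7% of all genes and 74.7% of the 574 long genes. The same 6 genes had a start summit among the 6793 strongest regions of each replicate's own list, where 25.9%, 27.3% and 24.5% of all genes had one. Those lists held 6, 10 and 8 start summits of the genes (8.0 ± 2.0, SD, n = 3).

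By alternative start, 9 of the 31 start groups (29.0%) had an optimal summit, against 23.4% of the 17154 start groups of all genes and 29.5% of those of the 574 long genes. Without usp, which is far shorter, it was 7 of 29 (24.1%), so the starts of the 9 long genes did not have summits more often than those of genes as long. The outermost start had a summit in 3 of 10 genes (usp, ftz-f1 and Hr38), and 6 of the 21 later start groups had one. Of the 10 start summits, 6 were among the strongest regions of all 3 replicate lists. The only optimal summit of usp start 1, of EcR start 3 and of Eip75B start 6 was among those of replicate 2 alone. Of the 22 start groups without an optimal summit, 13 had a weaker region of the pooled list within 500 bp and 9 had none. Those weaker regions are called sub-threshold, because the authors describe the pooled and replicate lists as peaks together with background. The share of such start groups over all genes was not taken.

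The 10 genes held 52 optimal summits, 10 at starts and 42 elsewhere in the gene. The start share of 19.2% was below the 29.3% found over the 1370 optimal summits of the long genes, and without usp it was 7 of 49 (14.3%). Of the 42 summits away from starts, 40 were intronic, 1 lay in the 5′ UTR of Hr38 and 1 in the 3′ UTR of Hr4. Pooled over the 9 long genes there were 7.41 such gene-body summits per 100 kb, against 3.19 over the 574 genes of the same length range. The median gene of the 9 had 6.43 per 100 kb, and the median of the 574 had 1.89 with quartiles of 0.0 and 4.84. Among the 574, 239 (41.6%) had no gene-body summit at all. The excess over genes of like length therefore lay in the gene bodies and not at the starts, although the genes were not drawn at random and no test was made.

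**Figure D1:**
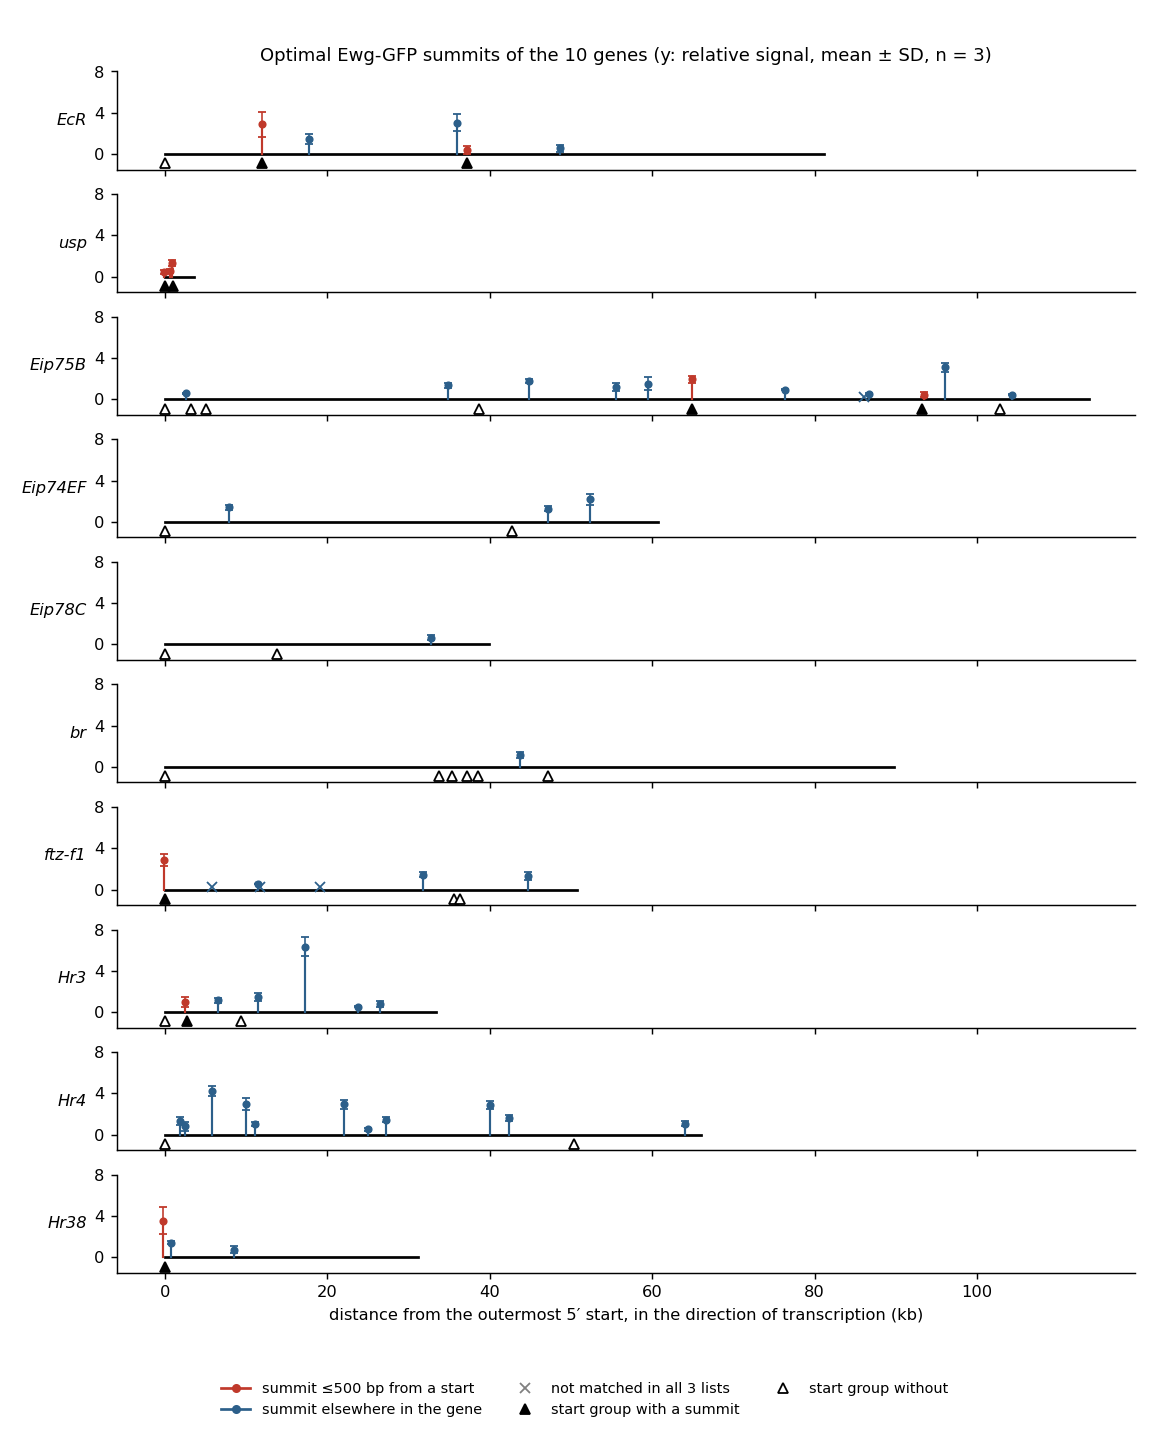
Each of the 10 genes is drawn to the same scale from its outermost 5′ start (x axis, kb in the direction of transcription), with optimal summits as stems of relative signal (mean ± SD, n = 3), red within 500 bp of a start and blue elsewhere, crosses for the 4 summits not matched in all 3 lists (no value), and filled or open triangles for start groups with or without an optimal summit. The tallest stem, 6.35 in Hr3, and all 11 summits of Hr4 lie away from the starts.

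The summits of the 10 genes were of ordinary to high strength. Their median pooled signal was 344, against 270 for all optimal peaks. The start summits had a median of 343 and the gene-body summits one of 344, whereas over all optimal peaks those at starts had 301 and the others 245. Those others are all peaks over 500 bp from a protein-coding start, within genes or between them, so 245 is not a gene-body median. Start and gene-body summits of these genes were thus alike in level, and both were above these 2 medians. The median relative signal of the 48 summits matched in all 3 lists was 1.27, 0.988 and 1.42 in replicates 1, 2 and 3 (1.23 ± 0.218, SD, n = 3). Among the 6793 strongest regions of all 3 replicate lists were 36 of the 52 summits (69.2%), against 62.1% of all optimal peaks. Another 10 were among the strongest of 2 lists, 5 of 1 list and 1 of none.

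**Figure D2:**
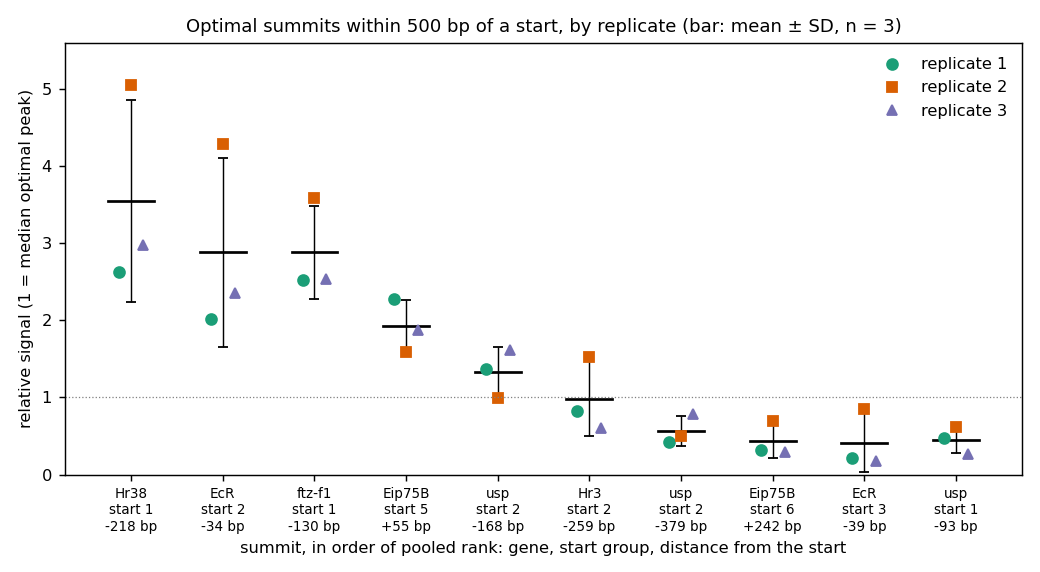
Relative signal of the 10 optimal summits within 500 bp of a start in each replicate (symbols, 1 being the median optimal peak), with the mean as a bar and the SD as a whisker, in order of pooled rank from left to right. Replicate 2 is the highest point at the leading 3 summits, Hr38, EcR start 2 and ftz-f1 start 1.

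EcR, the ecdysone receptor itself (FBgn0000546, chromosome 2R, 6087873 to 6169087, minus strand), has 3 start groups. The outermost start (EcR-RA) had no optimal summit and no sub-threshold summit within 500 bp. Start 2 (EcR-RD and EcR-RE) had a summit 34 bp upstream at 6157163 of rank 543, with relative signals of 2.02, 4.28 and 2.35 in replicates 1, 2 and 3 (2.88 ± 1.22). Start 3 (EcR-RB, EcR-RC and EcR-RG) had a weak summit 39 bp upstream at 6131880, of rank 6395, with 0.219, 0.851 and 0.175 (0.415 ± 0.378). Replicate 2 was the highest of the 3 at both starts, and the weak summit was among the strongest regions of that replicate alone. A summit at 6133182, 1260 bp upstream of start 3 and outside the start window, ranked 515 with 2.34, 3.92 and 2.82 (3.03 ± 0.811). The summit of start 2 and this intronic one differed by less than the spread between replicates (−0.12 ± 0.21 on the log2 scale, start minus body, higher at the start in 1 of 3 replicates, exact permutation p = 0.5). The other 2 intronic summits had 1.47 ± 0.463 (6151308) and 0.557 ± 0.324 (6120477).

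usp (FBgn0003964, chromosome X, 2038798 to 2042311, minus strand) encodes ultraspiracle, the RXR homologue that pairs with EcR. It is the short gene of the set, at 3.51 kb, and both of its start groups had optimal summits. The strongest, at 2041480, lay 168 bp upstream of start 2 (usp-RA) and ranked 2171, with 1.37, 0.991 and 1.62 (1.33 ± 0.318). A summit at 2041691, 379 bp upstream of the same start, had 0.417, 0.499 and 0.783 (0.566 ± 0.192). The summit 93 bp upstream of start 1 (usp-RB), at 2042404, ranked 6624 with 0.47, 0.617 and 0.265 (0.451 ± 0.177). These summits are shared with neighbours. The first pair lay 388 and 177 bp from a start of CG4313, and the last lay 93 bp from a start of Actn, so the lists cannot assign them to usp alone.

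Eip75B (FBgn0000568, chromosome 3L, 17950953 to 18064696, minus strand) encodes E75, a heme-binding nuclear receptor that acts as a repressor and is induced directly by the hormone. It is the longest of the genes, at 114 kb, with 7 transcripts from 7 separate start groups. Only starts 5 and 6 had an optimal summit. The one at start 5 (Eip75B-RC), 55 bp downstream at 17999766, ranked 1313 with 2.28, 1.59 and 1.88 (1.92 ± 0.344). The one at start 6 (Eip75B-RA), 242 bp downstream at 17971197, ranked 5773 with 0.318, 0.694 and 0.293 (0.435 ± 0.225). The stronger of these was lowest in replicate 2 and the weaker was highest there. The first 4 starts and start 7 had none. Sub-threshold regions lay 434 bp from start 1 (rank 11039), 86 bp from start 4 (rank 26110) and 191 bp from start 7 (rank 18504), each with a summit in the list of 1 replicate only. Start 2 (Eip75B-RE) was a near miss, with an optimal summit of 0.576 ± 0.0682 at 604 bp.

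Eip75B carried 10 gene-body summits, or 8.79 per 100 kb, more than 90.2% of the 574 long genes. The strongest was at 17968602, 2837 bp downstream of start 6 and within its transcript, of rank 508. Its relative signals were 2.67, 3.56 and 3.07 (3.1 ± 0.446), all above the median peak. The strongest start summit was below it by 0.70 ± 0.47 on the log2 scale, lower in 3 of 3 replicates (exact permutation p = 0.25, the smallest possible). The next in rank were 18019822 with 1.79 ± 0.202, 18005247 with 1.52 ± 0.609, 18029803 with 1.33 ± 0.242 and 18009192 with 1.17 ± 0.375. These 4 lie between starts 3 and 5, in introns of the transcripts from the first starts, and the 4 weaker ones with a value in all lists were below the median peak.

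Eip74EF (FBgn0000567, chromosome 3L, 17558672 to 17619325, minus strand) encodes the ETS-domain factor E74, an early gene with 2 start groups. Neither had an optimal summit. A sub-threshold region lay 291 bp from start 1, of rank 15290 and with a summit in replicates 1 and 2 only. Another lay 61 bp from start 2, of rank 18347 and with a summit in replicates 2 and 3 only. All 3 of its optimal summits were intronic and all were among the strongest regions of every replicate list. The strongest, at 17567045, ranked 1021 with 2.34, 1.61 and 2.57 (2.17 ± 0.501), and held 1 CAGGTA and 1 AGGTCA within 100 bp. The summit at 17611476 had 1.39 ± 0.242 and that at 17572190, shown above, had 1.26 ± 0.23. The gene had 4.95 gene-body summits per 100 kb, more than 75.6% of the long genes.

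br (FBgn0283451, chromosome X, 1575132 to 1664869, plus strand) encodes the BTB zinc-finger proteins of the Broad Complex, an early gene that specifies the pupal stage. It has the most transcripts of the genes, 16 from 6 start groups. Among the 9 long genes it had the lowest density of gene-body summits. None of the 6 groups had an optimal summit, start 4 with its 9 transcripts included. Sub-threshold regions lay 292 bp from start 2 (rank 17708), 296 bp from start 4 (rank 22530) and 180 bp from start 6 (rank 23537). The single optimal summit of the 89.7 kb span lay in an intron at 1618855, of rank 2696, with 1.18, 0.817 and 1.39 (1.13 ± 0.29). That position also lies within Mur2B. At 1.11 gene-body summits per 100 kb, br stood above 43.0% of the long genes.

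Eip78C (FBgn0004865, chromosome 3L, 21226609 to 21266503, plus strand), a nuclear receptor induced early in the response, also had 1 optimal summit. It was intronic, at 21259417, of rank 4627, with 0.429, 0.739 and 0.805 (0.658 ± 0.201), and lay 19070 bp from the nearer start. Neither start group had an optimal summit. A sub-threshold region of rank 28831 lay 59 bp from start 2, with a summit in replicates 1 and 2. Eip78C, at 2.51 gene-body summits per 100 kb, was above 56.4% of the long genes, so br and Eip78C were near the middle of genes of this length.

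Hr3 (FBgn0000448, chromosome 2R, 10203995 to 10237348, minus strand) encodes the fly homologue of the vertebrate ROR receptors, which represses early genes and activates ftz-f1. It held the strongest summit of the 10 genes, an intronic one at 10220073, 7884 bp downstream of start 3 and of rank 88. Its relative signals were 6.25, 5.52 and 7.27 (6.35 ± 0.877), and it ranked 86, 172 and 57 in the lists of replicates 1, 2 and 3. The position also lies within CG12912 and CG46321. Start 2 (Hr3-RC and Hr3-RI) had a summit 259 bp upstream at 10234866, with 0.819, 1.53 and 0.608 (0.985 ± 0.483), which is also 259 bp from a start of CG12912. Starts 1 and 3 had neither an optimal nor a sub-threshold summit. The start summit was below the intronic one by 2.79 ± 0.87 on the log2 scale, in 3 of 3 replicates (exact permutation p = 0.25). The other 4 gene-body summits had 1.46 ± 0.43 (10225890), 1.13 ± 0.245 (10230862), 0.807 ± 0.309 (10210877) and 0.532 ± 0.0648 (10213645). With 15.0 gene-body summits per 100 kb, Hr3 stood above 96.7% of the long genes.

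Hr4 (FBgn0264562, chromosome X, 1941940 to 2007956, plus strand) encodes a nuclear receptor that represses early genes and takes part in the timing of the hormone pulse. It had 11 optimal summits and none at a start, at 16.7 gene-body summits per 100 kb, above 97.7% of the long genes. Of the 574 long genes, 8 had as many gene-body summits or more, Hr4 included. The strongest, at 1947748, 5808 bp downstream of start 1, ranked 264 with 4.46, 3.64 and 4.51 (4.21 ± 0.489), and held none of the motifs searched. Next came 3 summits of nearly equal strength, 2.95 ± 0.453 at 1963952, 2.88 ± 0.413 at 1981923 and 2.96 ± 0.554 at 1951908, which differed by less than their spread. The fifth in rank, at 1984361, had 1.63 ± 0.277. The other 6 ranged from 0.507 to 1.46, and 9 of the 11 were among the strongest regions of all 3 lists. At the starts themselves the pooled list held only sub-threshold regions, 1 bp from start 1 (rank 13551) and 29 bp from start 2 (rank 14772), each with a summit in replicate 2 only. The summit in the 3′ UTR, at 2006009, had 1.04 ± 0.234.

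ftz-f1 (FBgn0001078, chromosome 3L, 18750607 to 18801309, minus strand) encodes the nuclear receptor that makes tissues competent to respond to the next hormone pulse. Start 1 (ftz-f1-RB) had a summit 130 bp upstream at 18801439, of rank 583, with 2.52, 3.58 and 2.54 (2.88 ± 0.607). The start of the non-coding gene lncRNA:CR45939 lies 127 bp from the same summit. Starts 2 and 3 had only sub-threshold regions, of rank 9046 at 441 bp and rank 18389 at 351 bp. Unlike in Eip75B and Hr3, the start summit was the strongest of the gene. It was above the strongest gene-body summit matched in all lists (18769529, 1.42 ± 0.255) by 1.01 ± 0.54 on the log2 scale, in 3 of 3 replicates (exact permutation p = 0.25). A further summit, 18756661, had 1.3 ± 0.376, and 18789829 was weak but even, at 0.512, 0.533 and 0.503. The other 3 gene-body summits had no match within 100 bp in 1 list each. They were 18789628 (1.27 in replicate 2 and 0.893 in replicate 3), 18782270 (0.561 and 0.831 in the same replicates) and 18795581 (0.816 in replicate 1 and 0.679 in replicate 3). The density of 11.8 per 100 kb was above 94.6% of the long genes. Of the gene-body summits behind it, all but 18769529 and 18756661 also lie within lncRNA:CR45939.

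Hr38 (FBgn0014859, chromosome 2L, 20683462 to 20714588, minus strand) encodes the single fly member of the NR4A receptors, which can pair with Usp. Its 2 transcripts share 1 start. The summit 218 bp upstream of it, at 20714806, was the strongest of all start summits of the 10 genes, of rank 355, with 2.62, 5.05 and 2.98 (3.55 ± 1.31). A second summit lay 726 bp downstream in the 5′ UTR at 20713862, of rank 1810, with 1.27, 1.6 and 1.39 (1.42 ± 0.164). The start summit was higher by 1.27 ± 0.34 on the log2 scale, in 3 of 3 replicates (exact permutation p = 0.25). A further summit, intronic at 20706123, had 0.434, 1.08 and 0.587 (0.701 ± 0.339). The gene had 6.43 gene-body summits per 100 kb, above 82.9% of the long genes.

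**Figure D3:**
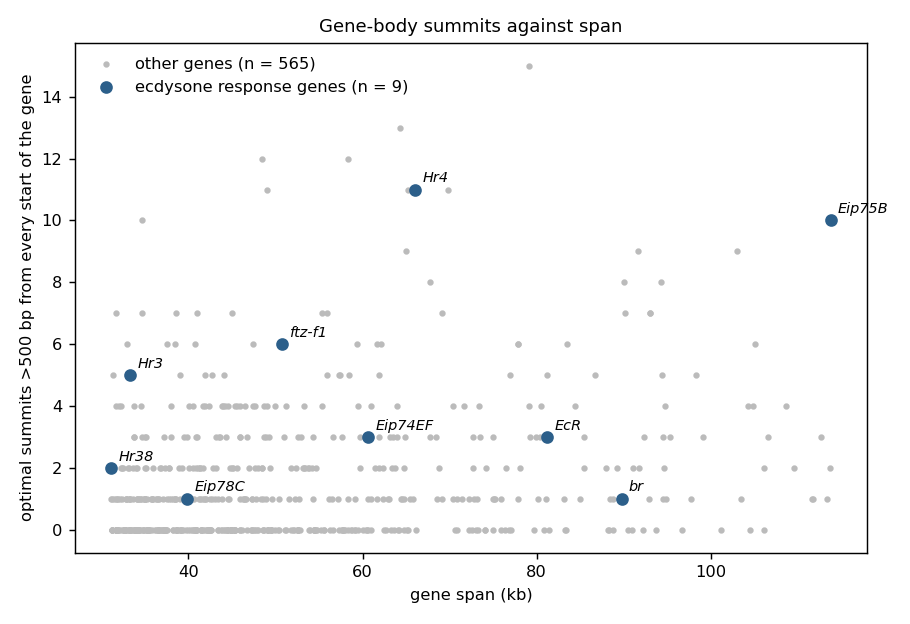
Number of optimal summits over 500 bp from every start (y axis) against gene span in kb (x axis) for 9 of the 10 genes (large points) and the 565 other genes of 31.1 to 114 kb (small points). Hr4 with 11 and Eip75B with 10 lie near the top of the genes of like length, and br and Eip78C have 1 each, where 239 of the 574 genes have none.

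Across the genes there was no common position for the main summit. It lay at a start in Hr38, ftz-f1 and usp, in an intron in Hr3, Hr4, Eip75B, Eip74EF, br and Eip78C, and at either place in EcR, where start and intron were alike. The order of the strongest summits by mean relative signal was Hr3 (6.35), Hr4 (4.21), Hr38 (3.55), Eip75B (3.1), EcR (3.03), ftz-f1 (2.88), Eip74EF (2.17), usp (1.33), br (1.13) and Eip78C (0.658). Hr3 lay above Hr4 in each replicate. From Hr4 to ftz-f1 neighbouring genes differed by less than the larger of their SDs, and so did usp and br. Near the lower limit of the optimal set, a signal of 141.8, the weakest included summit was in Hr4 (143.1, rank 6737), and the strongest excluded one was in Hr3 (10223843, signal 140, rank 6868).

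Sub-threshold regions were 173 in number, 14 at starts and 159 in gene bodies. Only 17 had a summit within 100 bp in all 3 replicate lists and 23 had one in none. Among the strongest regions of at least 1 replicate list were 20 of them, of 2 lists 2 (18784747 and 18786984, both in ftz-f1), and of all 3 lists 0. They therefore added no start that all replicates ranked among their strongest regions. Over the genome 21973 regions of the pooled list overlapped no optimal peak, and the same counts were not taken over them. Whether the regions of these genes differ from the others was not tested.

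Motif letters were read within 100 bp of each of the 52 summits, on both strands, beside all 6793 optimal summits. The NRF-1 palindrome with at most 1 mismatch was found at 4 summits (7.69%, against 10.5%) and the exact palindrome at 0 (against 1.94%). The 4 were EcR start 2, the Hr38 start, the Eip74EF intron shown above and the Eip75B intron at 17960443. TGCGCA, which can overlap the palindrome, was found at 10 (19.2%, against 17.2%), and at 3 of the 10 start summits. GAGAG was at 16 (30.8%, against 31.9%), CAGGTA at 2 (3.85%, against 3.62%) and TATCGATA at 0 (against 3.46%). AGGTCA, the half-site that nuclear receptors themselves bind, was at 4 summits (7.69%, against 4.34%), all in gene bodies, 2 of them in Hr4. Of the Hr4 matches, 3 lie at the summit at 1981923 and 1 at that at 1944410. Within 250 bp AGGTCA was at 10 summits (19.2%, against 9.5%), again all in gene bodies. These counts were not tested, and the strongest summits of Hr4 and Eip75B, shown above without capitals, held none.

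Replicate 2 differed from the other 2 by place in the gene. Its relative signal, divided by the geometric mean of replicates 1 and 3, had a median log2 ratio of 0.83 at the 10 start summits, where 7 were above 0. At the 38 gene-body summits matched in all lists the median was −0.33, with 15 above 0. Over all optimal peaks the median was 0.09 at starts and −0.10 elsewhere, within genes or between them. GC content moved with this ratio, and it differed by place as well. Its median was 47.8% at the 10 start summits and 40.3% at the 38 gene-body summits, and place and GC content were not separated. Over all 5852 optimal summits matched in the 3 lists, the ratio and the GC content within 100 bp had a Pearson r of 0.56 and a Spearman rho of 0.58, and over the 48 summits of these genes r was 0.55 and rho 0.64. These are descriptions across sites that share the same 3 libraries, and the summits are not independent. Of the 20 summits of these genes below the median GC of all optimal peaks (39.3%), 2 were higher in replicate 2, and of the 28 at or above it 20 were. The part of GC content in the differences between replicates was not tested. When only the 4908 optimal peaks among the strongest regions of both replicates 1 and 3 were kept, the genes with a start summit were still the same 6. Each of them has a start summit among the strongest regions of all 3 lists, so this filter could not have lost one. The optimal set itself was derived from all 3 replicates, so this does not remove replicate 2 from the calling of the peaks.

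**Figure D4:**
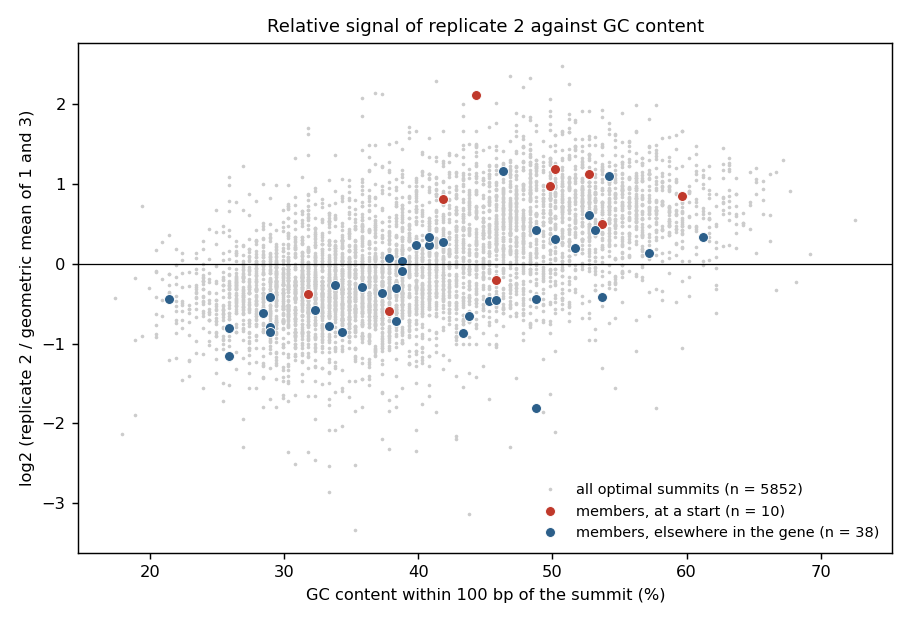
Log2 ratio of relative signal in replicate 2 to the geometric mean of replicates 1 and 3 (y axis) against GC content within 100 bp of the summit in percent (x axis), for all 5852 optimal summits matched in the 3 lists (grey) and those of the 10 genes, at starts (red, n = 10) and elsewhere (blue, n = 38). Points rise from left to right in both sets, with a Spearman rho of 0.58 over all and 0.64 over the 48.

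Other genes of the pathway were read from 5 lists of 46 genes, of which 18 (39.1%) had an optimal summit within 500 bp of a start, against 26.4% of all genes. The lists are small, and their counts are descriptions beside that share. With the stronger 3396 peaks 7 of the 46 had one, against 15.8% of all genes, so the higher share was not kept. The lists include long genes such as tai and Smr, and no share of genes of like length was taken for them. None of the 9 genes that make or turn over ecdysteroid (nvd, spo, spok, sro, phtm, dib, sad, shd and Cyp18a1) had an optimal summit at a start or in the gene body. Of the 5 genes of hormone transport and receptor cofactors, 4 had a start summit. They were alien, a corepressor of the receptor (1.8 ± 0.458), tai, its coactivator (1.47 ± 0.222), Oatp74D, the ecdysone importer (0.757 ± 0.139), and trr, a histone methyltransferase. Smr, the corepressor SMRTER, had 5 summits in its body and none at a start.

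Among 13 other nuclear receptors, 6 had a start summit, namely Hr39, Hr78, Hr96, ERR, Hnf4 and eg. Hr96, a receptor of lipid and xenobiotic metabolism, had 2.31, 2.42 and 2.56 (2.43 ± 0.125) and Hnf4, a regulator of fat metabolism, had 1.91 ± 0.552. The strongest Hr78 summit was matched in replicate 3 only (1.23). In the juvenile hormone list gce, a receptor of that hormone, and its target Kr-h1 had start summits, 2 of 3 genes, with 0.859 ± 0.324 in gce and a Kr-h1 summit matched in replicates 2 and 3 (0.754 and 0.323). Of 16 further ecdysone response genes, 6 had one. These were Eip93F, Eip63F-1, Ldh, hid, Dronc and chinmo, of which Ldh (lactate dehydrogenase) had 2.75 ± 0.386, hid, an inducer of cell death, 1.43 ± 0.478 and Eip63F-1 1.18 ± 0.232. Strong summits outside the start windows of these lists, named after their values were seen, were ImpL2 (3.76 ± 0.0865, 1072 bp from a start), gce (3.89 ± 0.869, 542 bp) and Hr39 (3.47 ± 1.16, 658 bp).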

How the data were processed

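Chromatin of Ewg-GFP embryos was analysed from deposited peak lists of 3 biological replicates (1 group). Per the file headers, each replicate and the pooled replicates have a permissive list of peaks and background, and an optimal set was thresholded by irreproducible discovery rate. Aligner, peak caller and settings were not given in the sources used here. Each peak has a signal, a −log10 q-value and a summit offset, which are the authors' deposited values. Signal was used within lists only, after division by the list's median over matched optimal peaks, and q-values were not used further. Lists on dm3 were not used. Sequence came from the NCBI RefSeq dm6 assembly and genes from Ensembl release 115; an ATG stood at 13882 of 13945 coding starts (99.55%) when sequence and annotation were joined. Positions count from 1.

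Calculations ran in Python 3.11.15 (scipy 1.17.1, numpy 2.4.6, matplotlib 3.10.9, pandas 2.3.3), and the assignment and matching steps were tested on simulated data. An exact two-sided sign-flip permutation test over replicates compared the strongest start summit with the strongest gene-body summit. The genes and lists were chosen with earlier results of these data known, so counts over them are given beside backgrounds and without tests. All start summits are named, with up to 5 gene-body summits per gene by signal, the best sub-threshold region of each start without an optimal summit, and up to 3 genes per other list with values. Of the listed names, phm, EcI, Alien, Eip71CD and Eip55E were found under the symbols phtm, Oatp74D, alien, MsrA and Cth, a step added after the files were read. Alternatives were windows of 250 and 1000 bp, other joining and matching distances, a stricter or the pooled list, 1 gene per summit, and leaving out each replicate. For the counts, leaving out a replicate kept the optimal peaks among the 6793 strongest regions of both other replicate lists, and peaks were not called again.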

Additional observations from a re-analysis of the deposited data

How the results depend on the processing

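The count of 6 genes with a start summit was 5 with a window of 250 bp (Hr3 was lost), against 21.8% of all genes. It was 6 with a window of 1000 bp (against 30.0%), with the stronger 3396 peaks (against 15.8%) and with 1 gene per summit (against 20.5%). With the pooled list of peaks and background it rose to 10, against 46.8% of all genes, since that list is longer by construction. Leaving out each replicate in turn kept only the optimal peaks among the strongest regions of both other lists, 4706 to 4908 peaks in place of 6793. Each of these smaller sets gave 6 genes, against 19.6% to 20.5% of all genes in place of 26.4%. Each gave 6 start groups in place of 9, against 17.2% to 17.9% of all start groups in place of 23.4%. Both counts of 6 were fixed in advance. Each of the 6 genes has 1 start summit among the strongest regions of all 3 lists, and their other start summits are among those of only 1 list. Gene-body summits numbered 30 to 36 in place of 42, and genes of the other lists 13 to 15 in place of 18. The median relative signal, taken over the remaining replicates, was 1.13 to 1.34 in place of 1.23. With the stronger 3396 peaks, 7 of the 46 genes of the other lists had a start summit, a share no higher than the 15.8% of all genes. The motif counts moved with the window by construction. At 50 bp there were 6 summits with GAGAG (11.5%, against 18.7% of all optimal summits) and 2 with AGGTCA (3.85%, against 2.0%). At 250 bp there were 28 with GAGAG (53.8%, against 57.9%), 10 with AGGTCA (19.2%, against 9.5%), 4 with CAGGTA (7.69%, against 9.76%), 1 with TATCGATA (1.92%, against 5.96%) and 1 with the exact palindrome (1.92%, against 2.25%). Matching within 50 bp left the ftz-f1 start summit unmatched in at least 1 list and made the strongest ftz-f1 value 1.29. It also gave no value for br or for the start and gene-body difference of Eip75B and ftz-f1. Of 59 values of strongest summits, 58 moved by less than 1 SD. Leaving out a replicate cannot move a mean by as much as 1 SD, so those values could not have counted as moved. The 28 differences between start and gene body that were recomputed kept their direction, but most could not have changed it. Both summits of a gene are divided by the same list median, so the difference is the same whatever median or matching distance is used. In Eip75B, ftz-f1, Hr3 and Hr38 all replicates had the same sign, so leaving 1 out cannot reverse it. For EcR, which had both signs, leaving out each replicate gave −0.24 to −0.04 on the log2 scale. Comparing relative signal, rather than reads, leaves the depth behind each value unknown.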
